A study of Mus musculus with 2 samples.

Results

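The Mir29 genes of the mouse, Mir29a, Mir29b-1, Mir29b-2 and Mir29c, were followed in the heart of female B6CASTF1/J mice aged 10 days. This strain is the F1 cross of C57BL/6J with CAST/EiJ. The 4 genes were taken by their GENCODE M21 symbols from the 2202 miRNA genes counted in each library. Short inserts (under 30 nt, per the labels) made from total heart RNA were sequenced by microRNA-seq, with 1 library from each of 2 hearts, replicates 1 and 2. The labels name no treatment, other tissue or other age, so levels and ratios are given as descriptions, and differences concern these 2 libraries only. Each heart has its own biosample, and both biosamples cite a single donor record.

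MicroRNAs of a family share a seed, the bases 2 to 8 of the mature strand that pair with target mRNAs. The miR-29 family is best known for repressing mRNAs of the extracellular matrix, among them collagens, elastin and fibrillin. In the mouse heart it is known to be enriched in fibroblasts and to fall beside an infarct while collagen mRNAs rise, from which the name antifibrotic comes. Each hairpin transcript can yield a 5p and a 3p mature strand, and the 3p strand is the one known as miR-29.

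The mature 3p strands are shown with the seed in capitals, because they decide which reads can be told apart. They are RefSeq sequences on GRCm38.p6, the assembly also called mm10, written 5′ to 3′.
miR-29a-3p (Mir29a): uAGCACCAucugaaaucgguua
miR-29b-3p (Mir29b-1 and Mir29b-2): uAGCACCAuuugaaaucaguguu
miR-29c-3p (Mir29c): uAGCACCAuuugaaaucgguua
The seed AGCACCA was held by these 3 sequences and by no other of the 1674 distinct mature sequences in the table. Counting positions from 1 at the 5′ end, miR-29a-3p and miR-29c-3p differed by the single substitution C10U. miR-29b-3p differed from miR-29c-3p by A18G, G21U and U22A, after 17 identical bases. Bases 9 to 11 read UUU in miR-29b-3p and miR-29c-3p and UCU in miR-29a-3p. Uracils there are known to accompany fast decay of miR-29b in human cells. miR-29b-3p ends in AGUGUU, known in human cells as a nuclear import element. Of the 1674 mature sequences, 2 (0.119%) ended in these letters, searched on the mature strand only, and 12 (0.717%) held them anywhere.

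The hairpins of Mir29b-1 and Mir29b-2 are shown because they yield the same mature 3p strand. Capitals mark the 25 nt run that both hairpins hold, which takes in the whole of miR-29b-3p and 2 bases before it.
Mir29b-1: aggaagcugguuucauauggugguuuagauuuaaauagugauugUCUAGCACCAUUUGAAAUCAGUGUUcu
Mir29b-2: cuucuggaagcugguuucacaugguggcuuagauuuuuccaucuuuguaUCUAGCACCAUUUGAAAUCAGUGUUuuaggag
A read of the plain mature miR-29b-3p matches both genes exactly, and the tables put reads with more than 1 position in a category row. The counts of Mir29b-1 and Mir29b-2 therefore hold only the reads that were placed at 1 position, and their levels are uncertain. Which bases those reads carry is not in the tables. In contrast, miR-29a-3p and miR-29c-3p each occurred in 1 of the 2202 hairpins. Of 67 windows of 22 nt in Mir29a, 0 occurred in another hairpin, and in Mir29c 1 of 67 did, uugucuagcaccauuugaaauc, which Mir29b-1 also holds. That window begins 5′ of the mature miR-29c-3p, so the mature strand itself had no exact copy among the annotated hairpins. The genome outside annotated miRNA genes was not searched. The 5p strands of Mir29b-1 and Mir29b-2 also differed, with 19 of 21 aligned bases identical (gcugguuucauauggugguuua in Mir29b-1, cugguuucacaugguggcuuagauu in Mir29b-2).

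The genes lie in a pair of clusters. On chromosome 6, minus strand, Mir29b-1 (ENSMUSG00000065604.2, chr6:31063023-31063093, mm10) stands 275 nt upstream of Mir29a (ENSMUSG00000065610.1, chr6:31062660-31062747). In the annotation Mir29a overlaps no other gene, and Mir29b-1 overlaps the long noncoding RNA gene Gm27019 by 2 nt. On chromosome 1, plus strand, Mir29b-2 (ENSMUSG00000065412.3, chr1:195037040-195037120) stands 426 nt upstream of Mir29c (ENSMUSG00000065548.1, chr1:195037547-195037634). Both lie whole within an exon of the noncoding host gene A330023F24Rik, and on the opposite strand within an exon of a transcript of Cd46, a complement regulator. All 4 genes had 0 reads on the opposite strand in replicate 2 and 0 in replicate 1, and their counts without regard to strand equalled the gene-strand counts.

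Mir29a had the most counts of the 4 genes in both hearts. It had 3923 counts in replicate 2 and 1960 in replicate 1, or 856 CPM (counts on the gene per 1000000 counts on miRNA genes, 95% interval by the exact method 829 to 883) and 460.0 CPM (439.9 to 481). Its mean was 658 ± 280.0 CPM (SD, n = 2), and it ranked 80th of 2202 genes in replicate 2 and 99th in replicate 1.

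Mir29c followed at a much lower level. It had 264 counts in replicate 2 and 177 in replicate 1, which are 57.6 CPM (50.9 to 65.0) and 41.5 CPM (35.6 to 48.1), with a mean of 49.6 ± 11.4 CPM (SD, n = 2). For both Mir29a and Mir29c replicate 2 was the higher library and the intervals of the libraries did not overlap.

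For Mir29b-1 each library held 43 counts, which are 9.38 CPM in replicate 2 (6.79 to 12.6) and 10.1 CPM in replicate 1 (7.30 to 13.6), and its intervals overlapped. Mir29b-2 had 31 counts in replicate 2 and 9 in replicate 1, or 6.76 CPM (4.60 to 9.60) and 2.11 CPM (0.966 to 4.01), and its intervals did not. In replicate 1 it was the one Mir29 gene under 10 counts. These 2 genes are the ones that share their mature 3p strand, whose plain reads are not in their counts.

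**Figure D1:**
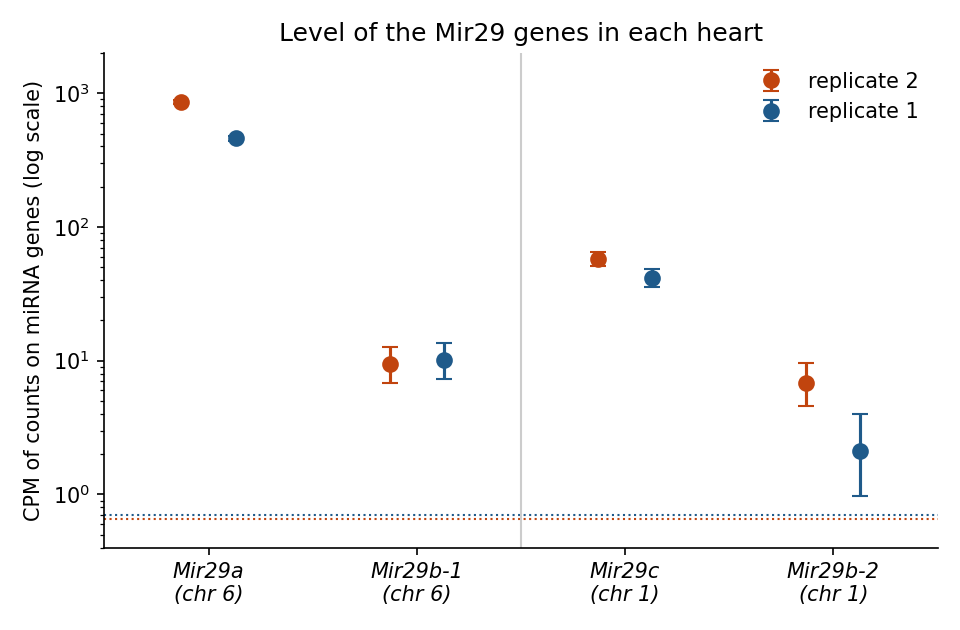
Level of each Mir29 gene in CPM on a log axis, replicate 2 (orange) left of replicate 1 (blue), with exact 95% intervals and dotted lines at 3 counts, the level that a count of 0 allows. Mir29a stands at 856 and 460.0 CPM, Mir29c at 57.6 and 41.5 CPM, and the 2 Mir29b genes at 10.1 CPM or less.

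Summed over the 4 genes the family had 930 CPM in replicate 2 and 514 CPM in replicate 1, a mean of 722 ± 294 CPM (SD, n = 2), or 0.0930% and 0.0514% of the counts. Of the family's counts Mir29a made 92.1% in replicate 2 (91.2 to 92.9, exact 95% bounds) and 89.5% in replicate 1 (88.2 to 90.8). Mir29c made 6.20% (5.49 to 6.96) and 8.09% (6.98 to 9.31). The chromosome 6 cluster held 865 CPM in replicate 2 and 470.1 CPM in replicate 1, against 64.4 and 43.7 CPM for the chromosome 1 cluster. Reads of plain miR-29b-3p, which could belong to either cluster, are in none of these sums.

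Within each library the genes were compared by the ratio of their counts, in 6 pairs and between the clusters. A small RNA read spans a whole mature strand, so counts were not divided by gene length. Mir29a exceeded Mir29c, the pair with mature strands that differ at 1 base, 14.9-fold in replicate 2 and 11.1-fold in replicate 1. On the log2 scale these ratios are 3.89 in replicate 2 (95% bounds, exact, 3.71 and 4.08) and 3.47 in replicate 1 (3.25 and 3.70). The direction was the same in both hearts, and the intervals did not overlap, so the size of the ratio differed between the hearts by more than counting error. The chromosome 6 cluster exceeded the chromosome 1 cluster 13.4-fold in replicate 2 (3.75, 3.58 to 3.92) and 10.8-fold in replicate 1 (3.43, 3.21 to 3.65), and here the intervals overlapped.

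Cluster mates differed widely in counts at 1 position, which for the Mir29b gene of each pair leave out the reads of its shared mature strand. The ratios are therefore ratios of these counts and not of total levels. Mir29a exceeded Mir29b-1 by 6.51 on the log2 scale in replicate 2 (6.08 to 6.98) and by 5.51 in replicate 1 (5.08 to 5.98). Mir29c exceeded Mir29b-2 by 3.09 in replicate 2 (2.55 to 3.68) and by 4.30 in replicate 1 (3.34 to 5.45). On chromosome 6 and on chromosome 1 alike, the gene of the unshared 3p strand had the higher count.

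Between the 2 Mir29b genes, the log2 ratio of Mir29b-1 over Mir29b-2 was 0.47 in replicate 2, with an interval of -0.23 to 1.19 that takes in 0, and 2.26 in replicate 1 (1.20 to 3.48). Their order in replicate 2 was thus within counting error, and the mean of 1.36 ± 1.26 (SD, n = 2) barely exceeded the spread between the hearts. Mir29c exceeded Mir29b-1 by 2.62 in replicate 2 (2.15 to 3.12) and by 2.04 in replicate 1 (1.55 to 2.56). By counts at 1 position the order from the highest was Mir29a, Mir29c, Mir29b-1, Mir29b-2 in both hearts, with the last pair within counting error in replicate 2. These counts leave out reads of plain miR-29b-3p, so the place of the Mir29b genes by total level is not known. The order of Mir29a above Mir29c does not involve them.

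**Figure D2:**
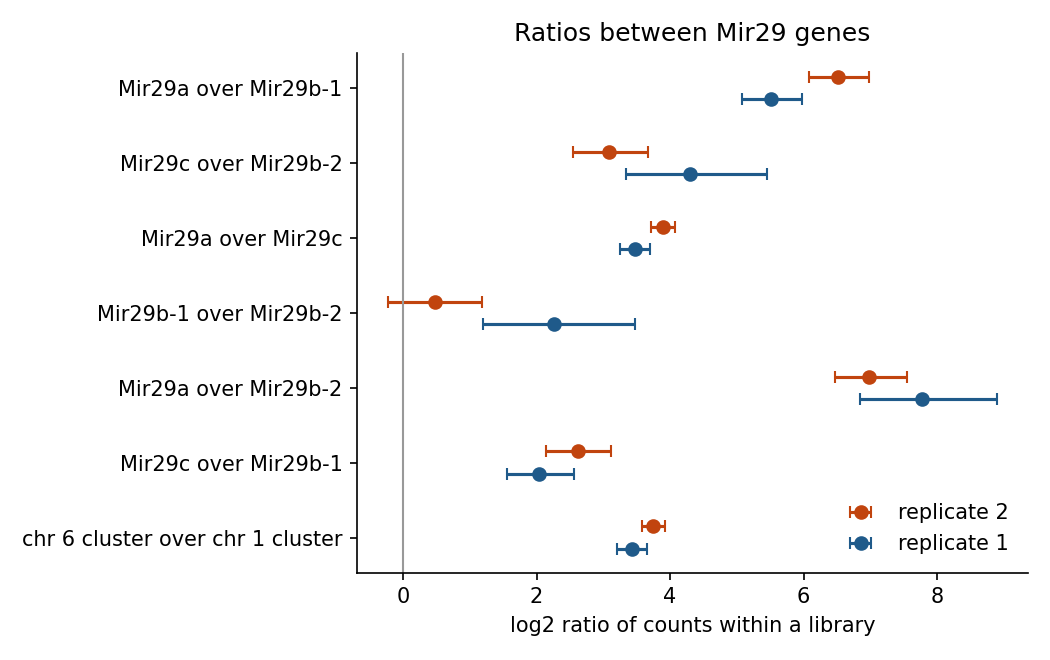
Log2 ratio of counts for the 6 pairs of Mir29 genes and for the clusters, replicate 2 (orange) above replicate 1 (blue), with exact 95% intervals for counting error. The interval of Mir29b-1 over Mir29b-2 in replicate 2, -0.23 to 1.19, is the one that takes in 0.

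For scale, neighbouring miRNA genes on the same strand within 10 kb, both reaching 20 counts over the libraries together, were compared in the same way, as absolute mean log2 ratios of the 2 libraries. Mir29a and Mir29b-1 stood at 5.99, and 8 of the 92 other pairs (8.70%) were further apart. The median of those 92 was 2.68, with quartiles of 1.46 and 3.98. Mir29b-2 and Mir29c stood at 3.65, and 29 of the 92 pairs other than it (31.5%) were further apart. Neighbouring genes differ in mature sequence, and pairs of a cluster share genes, so these shares describe the tables and carry no test. How many of the other pairs also hold shared mature strands was not counted.

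**Figure D3:**
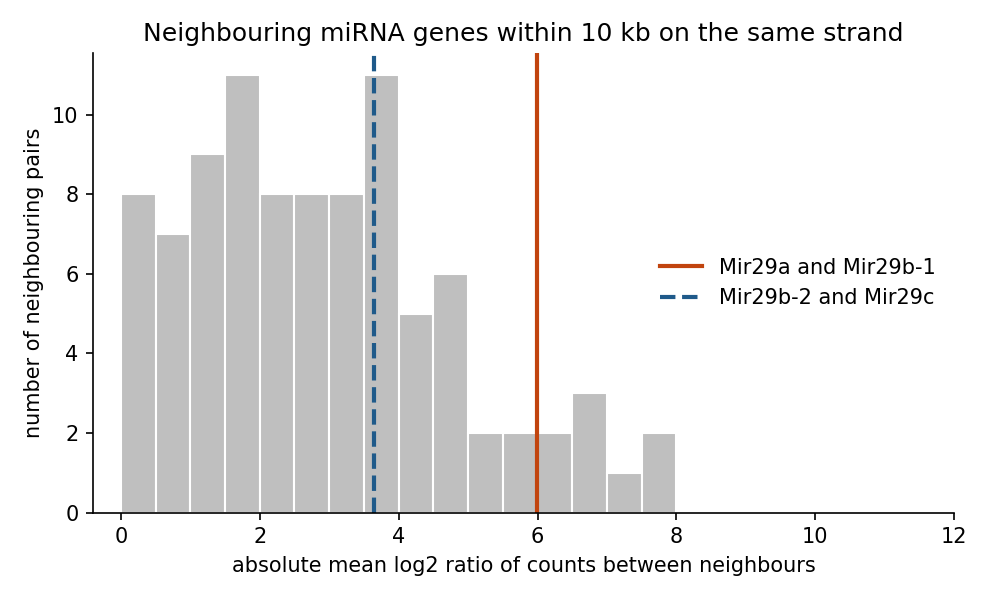
Histogram of the absolute mean log2 ratio of counts between neighbouring miRNA genes on the same strand within 10 kb, both Mir29 pairs included. The solid line marks Mir29a and Mir29b-1 at 5.99 and the dashed line Mir29b-2 and Mir29c at 3.65, against a median of 2.68 over the others.

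The hearts were set against each other gene by gene with an exact two-sided binomial test on the gene-strand counts, scaled by TMM (trimmed mean of M values) library sizes and adjusted over all 375 genes that reached 20 counts in the libraries together. A gene was called at an adjusted p under 0.05. Of the 4 Mir29 genes 3 were called, all of them higher in replicate 2. Of all 375 genes 55.2% were called, 26.1% higher in replicate 2 and 29.1% higher in replicate 1. Which direction held more calls turned with the scaling (98 genes with replicate 2 higher against 109 by TMM, 100 against 95 by DESeq2 size factors). The test asks only whether 2 counts differ beyond counting noise, and with 4 genes a count of 3 is near that background of 55.2%.

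Mir29a had a log2 ratio of replicate 2 over replicate 1 of 0.96 (exact 95% interval 0.88 to 1.04; exact binomial test, Benjamini-Hochberg adjusted p = 7.17e-135), and 48 of the 375 genes had a larger absolute ratio. The ratio of Mir29c was 0.54 (0.26 to 0.82; adjusted p = 0.000296 by the same exact test), and that of Mir29b-2 was 1.69 (0.64 to 3.00; adjusted p = 0.00162 by the same exact test), on 40 counts in all. Mir29b-1 was not called, with a ratio of -0.04 (-0.68 to 0.61; adjusted p = 0.953 by the same exact test), an interval that leaves room for a change of either sign.

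The median log2 ratio of the 4 genes was 0.75, beside -0.02 over all tested genes, and the median absolute ratio over all tested genes was 0.37. A stricter rule that also asks for a 2-fold difference called 10.7% of the 375 genes and 1 of the 4, Mir29b-2, since Mir29a lay just under 2-fold by TMM, and its log2 ratio was 1.00 by DESeq2 size factors. With 1 group of 2 hearts, no test of a difference between conditions can be made from these ratios.

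**Figure D4:**
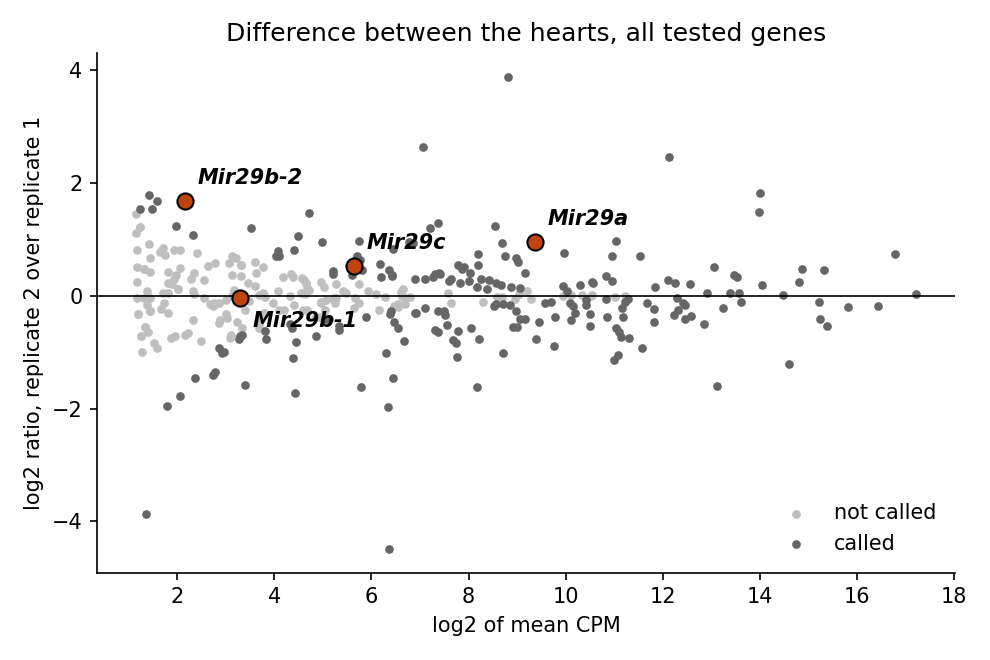
Log2 ratio of replicate 2 over replicate 1 against log2 mean CPM for the 375 tested genes, dark where called and light where not, with the 4 Mir29 genes in orange. Mir29a (0.96), Mir29c (0.54) and Mir29b-2 (1.69) lie above 0, and Mir29b-1 (-0.04) lies on it.

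Marker genes of the cell types that a heart holds also differed between the libraries. In bulk tissue, fewer cells of a type and less RNA per cell cannot be told apart. The endothelial marker Mir126a stood at 137860 CPM in replicate 2 and 86322 CPM in replicate 1, and the erythroid pair, Mir451a and Mir144, at 750 and 268 CPM in sum, so both were higher in replicate 2, as Mir29a was. The fibroblast list, led by Mir21a, summed to 9475 CPM in replicate 2 and 18169 CPM in replicate 1, of which Mir21a alone made 4247 and 13476 CPM. Of the 4 tested fibroblast genes, Mir214 (log2 ratio 0.22) and Mir199b (0.46) were called higher in replicate 2 (26.1% of all 375). Mir21a (-1.60) and Mir199a-2 (-0.82) were called higher in replicate 1 (29.1% of all 375). The cardiomyocyte list, led by Mir499, summed to 6596 CPM in replicate 2 and 9699 CPM in replicate 1, with 1 of its 6 tested genes called higher in replicate 2 (26.1% of all 375) and 4 higher in replicate 1 (29.1% of all 375). The smooth muscle list, led by Mir143, summed to 35952 CPM in replicate 2 and 53735 CPM in replicate 1. Of its 2 genes 1 was called, higher in replicate 1 (29.1% of all 375). The leukocyte list, led by Mir150, summed to 864 CPM in replicate 2 and 889 CPM in replicate 1. Of its 3 genes 1 was called, Mir142, higher in replicate 2 (26.1% of all 375) with a log2 ratio of 0.33. The epithelial list, led by Mir200c, summed to 352 CPM in replicate 2 and 660 CPM in replicate 1. Of its 5 genes Mir200b (0.95) was called higher in replicate 2 (26.1% of all 375), and 3 were called higher in replicate 1 (29.1% of all 375). Checked against the heart label, all 7 cardiomyocyte and all 5 fibroblast genes had counts in both libraries. Some had few, such as Mir133a-2 (4 in replicate 2 and 6 in replicate 1) and Mir199a-1 (1 and 8). Mir1a-1 and Mir1a-2, Mir133a-1 and Mir133a-2, and Mir199a-1 and Mir199a-2 are numbered copies of 1 miRNA each. Reads that match more than 1 copy are not in their counts, so these counts and the list sums are not total levels. All 5 epithelial genes had counts in both libraries as well, so having counts does not single out heart cell types. Of the 6 neuronal genes 5 were at 0 in both libraries, and the other, Mir9-3, had 2 counts in replicate 2 and 0 in replicate 1. The neuronal genes are numbered copies of Mir124a and Mir9, and reads that match more than 1 copy are not in their counts. Low counts of these genes therefore do not check the heart label. Of all 2202 genes 682 had counts in replicate 2 and 688 in replicate 1, and 1434 were at 0 in both. The part of these cell types in the Mir29 differences was not tested.

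The Mir29 genes were also set beside other miRNA genes known from fibrosis. The antifibrotic list holds miRNAs known to restrain matrix genes or their inducers in heart or fibroblasts, among them the miR-30 genes, which repress the matrix inducer Ctgf, and all 19 of its genes were found, miR-18a under the symbol Mir18. By mean level 4 of the 19 exceeded the Mir29 sum of 722 CPM, which leaves out plain miR-29b-3p. These were Mir30d (28526 ± 2529 CPM), Mir26b (16962 ± 1006), Mir30a (11812 ± 1594) and Mir30e (8509 ± 1814; SD, n = 2 each). The list's median was 169 CPM, against 29.7 CPM for the 4 Mir29 genes, where Mir29b-1 and Mir29b-2 again lack plain miR-29b-3p. Numbered copies in the antifibrotic list, such as Mir30c-1 and Mir30c-2, likewise lack reads that match both copies. Neither the count of 4 nor these medians therefore rank the total levels. Of its 15 tested genes 6 were called higher in replicate 2 (26.1% of all 375), 6 were called higher in replicate 1 (29.1% of all 375) and 3 were not called. The median log2 ratio was -0.11. Mir26a-1, chosen after its values were seen, had 30 counts in replicate 2 and 668 in replicate 1. Its log2 ratio of -4.49 (-5.09 to -3.99) was the largest in absolute size of all 375 genes. The other numbered copy, Mir26a-2, had 340 counts in replicate 2 and 401 in replicate 1, a log2 ratio of -0.28. Reads that match both copies are in neither count, so these are not ratios of total miR-26a.

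Among the 11 genes known to promote fibroblast activation or fibrosis, 5 exceeded the Mir29 sum, namely Mir21a (8862 ± 6526 CPM), Mir214 (4881 ± 378), Mir34a (2506 ± 152), Mir208a (2162 ± 1125) and Mir155 (1494 ± 125; SD, n = 2 each). Mir21a, a miRNA of activated fibroblasts, had 4247 CPM in replicate 2 and 13476 CPM in replicate 1, and so was lower in the heart with the higher Mir29a. Of the 10 tested genes of this list 4 were called higher in replicate 2 (26.1% of all 375) and 6 higher in replicate 1 (29.1% of all 375), with a median log2 ratio of -0.31. Mir21a had the largest absolute ratio of the list, -1.60 (interval -1.62 to -1.58). Several genes of both lists have near-identical copies, and their levels are then uncertain in the way described for Mir29b-1 and Mir29b-2. The profibrotic list holds all 5 genes of the fibroblast list and the cardiomyocyte gene Mir208a. The antifibrotic list shares Mir133a-1 and Mir133a-2 with the cardiomyocyte list. Calls in these lists and in the cell type lists are therefore not separate observations.

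**Figure D5:**
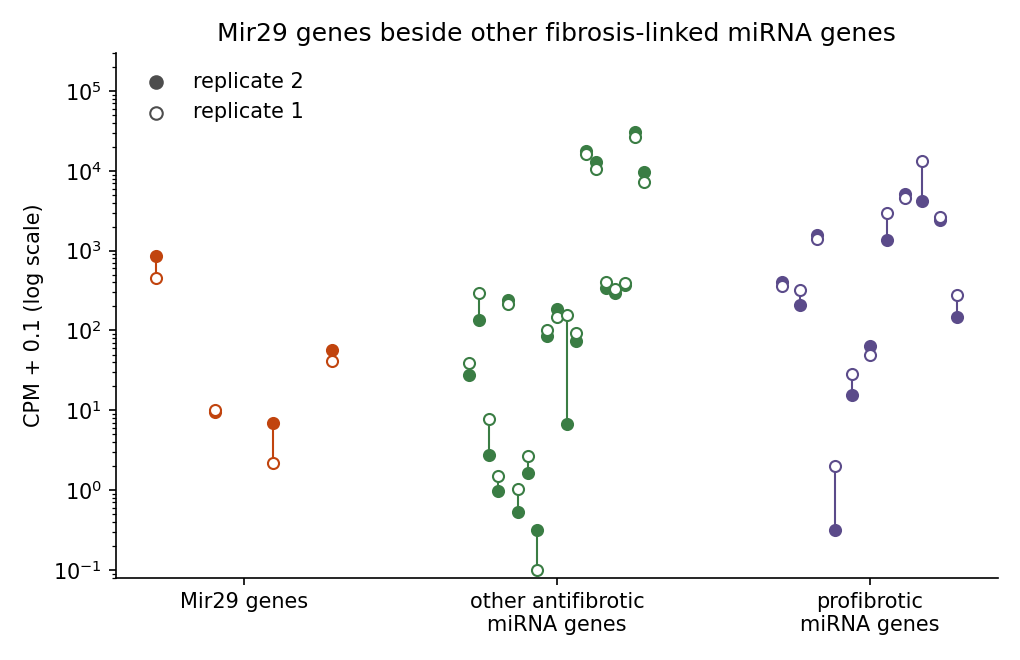
CPM + 0.1 on a log axis for the 4 Mir29 genes, 19 other antifibrotic and 11 profibrotic miRNA genes, with replicate 2 as filled and replicate 1 as open circles joined by a line. Mir29a, at 856 and 460.0 CPM, lies below Mir30d and Mir21a.

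With 2 libraries, the genes most like each Mir29 gene were taken as its neighbours in mean CPM. Around Mir29a stood Mir10b (704 ± 182 CPM) and Mir132 (670 ± 268) above, and Mir150 (622 ± 39.8), a lymphocyte miRNA, and Mir210 (586 ± 5.58), the miRNA of hypoxia, below. Of these 4, Mir10b and Mir132 were called, beside 55.2% of all 375 genes. Both were higher in replicate 1 (29.1% of all 375), with ratios of -0.47 and -0.77, opposite in sign to that of Mir29a. Mir150 and Mir210 were not called, with ratios of -0.06 and 0.09. Whether these ratios differ from the 0.96 of Mir29a was not tested.

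Around Mir29c stood Mir190a (50.8 ± 2.78 CPM) and Mir668 (49.7 ± 7.04) above. Below Mir29c stood Mir1a-2 (48.4 ± 7.10), a muscle miRNA, and Mir92-2 (44.7 ± 0.225). Mir1a-2 and Mir92-2 have the numbered copies Mir1a-1 and Mir92-1, and reads that match both copies are in neither count. Their places here are by these counts and not by total level. Around Mir29b-1 stood n-TSaga9 (9.89 ± 2.37 CPM), listed as a miRNA gene in M21, Mir410 (9.82 ± 3.70), Mir136 (9.71 ± 3.86) and Mir760 (9.33 ± 2.40). Around Mir29b-2 stood Mir6990 (4.68 ± 1.68), Mir200a (4.45 ± 1.67), Gm26117 (4.16 ± 0.905) and Mir1949 (4.16 ± 3.41; SD, n = 2 for each). Each of these means lay within 1 SD of the Mir29 gene it neighbours, taking the larger SD of the 2. Their choice by mean CPM makes this likely, so it carries no test of likeness.

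Depth set the precision of these values. Counts on miRNA genes numbered 4583025 in replicate 2 and 4260561 in replicate 1, so a count of 0 allows up to 0.655 and 0.704 CPM, below the 2.11 CPM of the lowest Mir29 value. Of all reads 38.0% in replicate 2 and 38.9% in replicate 1 were placed at more than 1 position, and the tables do not say how many of them carry miR-29b-3p. The labels describe no molecular identifiers, and intervals and floors thus hold counting error alone. The mm10 assembly represents C57BL/6J, and whether reads of the CAST/EiJ alleles were placed equally well was not tested.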

How the data were processed

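The deposited values are raw read counts per gene in 1 table a library, on mm10 with GENCODE M21, per the file headers. What the authors aligned and counted with is not given in the sources used here. The gene-strand column was used. Category rows (55.1% of reads in replicate 2 and 60.5% in replicate 1) were left out of library sizes. CPM, family shares and count ratios were computed with exact Clopper-Pearson intervals. Ratios between libraries used TMM factors from edgeR 4.0.16 (R 4.3.3) and a prior count of 0.5. The exact binomial test ran across all genes that reached 20 counts in sum, and compares 2 libraries. It was tested on simulated counts with counting noise alone, which cannot speak for spread between hearts. Python 3.11.15, numpy 2.4.6, scipy 1.17.1 and pandas 2.3.3 were used. Of 968 RefSeq hairpins matched by symbol, 965 had the M21 coordinates and sequence, among them all 4 Mir29 genes.

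The members and lists were chosen with earlier results of these data known. Named genes were the 4 Mir29 genes, with their partners in seed and longest shared run, the 2 neighbours above and below each in mean CPM, the 4 leading genes of the antifibrotic list and of the profibrotic list, and the leading gene of each marker list. Mir155, Mir26a-1, Mir26a-2, Mir142, Mir200b, Mir199a-1, Mir199a-2, Mir199b, Mir133a-1 and Mir133a-2 were named after their values were seen. So were Mir1a-1, Mir30c-1, Mir30c-2 and Mir92-1. Alternatives were the unstranded column, all reads as denominator, DESeq2 1.42.0 factors, total counts, other minimums and pseudocounts, gene length, and leaving out the most abundant gene or a replicate.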

Additional observations from a re-analysis of the deposited data

Results flagged for a closer look

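Reads placed at more than 1 position made 38.0% of the reads in replicate 2 and 38.9% in replicate 1, a signal outside the gene counts. These shares cover each library as a whole and not the Mir29 genes. Plain miR-29b-3p reads match Mir29b-1 and Mir29b-2 alike, and their number among these reads is not known. Their part in the low counts of both genes was not tested.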

How the results depend on the processing

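No paired analysis was possible because both samples belong to 1 group. Of 116 values under alternatives, 100 were kept, 14 moved and 2 lost their call. A level or ratio counts as kept when it moved by less than 1 SD, and leaving out 1 of 2 hearts cannot move a mean by more. Count ratios within a library could not move without regard to strand, since the gene counts are the same there. Another minimum count could change a call but not a gene's ratio between the libraries. Some of the 100 were thus fixed in advance. Without regard to strand the mean CPM was 946 for Mir29a, 13.8 for Mir29b-1, 70.9 for Mir29c, 960 for the chromosome 6 cluster, 77.4 for the chromosome 1 cluster and 1038 for the 4 genes. Their own counts were the same there, and the library totals were smaller. With all reads as denominator these CPM were 283, 4.10, 21.1, 287, 23.1 and 310.3. Mir29b-2 (4.44 CPM) had 6.43 and 1.94 CPM under these choices and counts as kept only because its SD was 3.29. Without the most abundant gene Mir29b-1 had 11.5 CPM. Asking also for a 2-fold difference left 40 of 207 called genes, without Mir29a (0.96) and Mir29c (0.54). Mir29a had 1.00 by DESeq2 factors, at the 2-fold limit. By total counts 85 genes were called higher in replicate 2 and 128 higher in replicate 1. DESeq2 gave both libraries a size factor of 1. No value with a summed count of 100 or more could be had for Mir29b-1, Mir29b-2 or either cluster pair, which lie under it. Depth limits Mir29b-2 most.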
